A study of Homo sapiens with 6 samples.

Results

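The HOXB cluster on chromosome 17 was examined for H3K27ac, a histone acetylation found at active promoters and enhancers. The members were the 9 genes HOXB1 to HOXB9, taken by name out of 20007 protein-coding genes of the GENCODE v44 annotation, and all 9 were found. They span 105047 bases on the minus strand of hg38. The region studied reached 10 kb past the outermost gene ends, at chr17:48518526-48643572, or 125047 bases. The promoter window of a gene (TSS window) extended for 2500 bases in both directions from the start of its canonical transcript, and the 9 windows together covered 42820 bases. H3K27ac was mapped by CUT&Tag, in which an antibody brings a transposase to the modified histone so that the DNA around it is cut and tagged. There were 4 libraries with a peak list, 1 for each group, and the 2 IgG libraries of the series were not analysed here.

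The groups were NC (control) and sh-ANP32B (knockdown) cells of the lines Kasumi-1 and MV4-11. Kasumi-1 and MV4-11 are established human acute myeloid leukemia (AML) lines, the former with a RUNX1::RUNX1T1 fusion and the latter with a KMT2A::AFF1 fusion and an internal tandem duplication of FLT3. The sh-ANP32B cells carried a short hairpin RNA against ANP32B, an acidic nuclear phosphoprotein that binds histones, delivered by lentivirus and selected with puromycin. The NC cells carried a control hairpin according to the study, while their labels call them untreated. Replicates had been merged before peaks were called, so each group is a single list, no spread between cultures can be given and no test was run. Every difference describes these libraries only. The lists hold positions and widths, with no peak height and no read total, and the depth is unknown.

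HOX genes encode homeodomain transcription factors that set position along the body axis, and they lie in clusters whose gene order follows the order of their use. In blood, HOXB genes are mainly active in stem and early progenitor cells and are switched off as cells mature. HOX proteins bind DNA with cofactors of the PBX, MEIS and PKNOX families, and KMT2A keeps HOX clusters active. High HOXA expression is a known feature of AML with a KMT2A fusion, and low HOX expression of AML with RUNX1::RUNX1T1.

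The labels were checked against marker genes by the bases under peaks in the TSS window. Of 9 myeloid markers, 6 had a peak in the Kasumi-1 control, 6 in the Kasumi-1 knockdown, 6 in the MV4-11 control and 3 in the MV4-11 knockdown. SPI1, the main myeloid transcription factor, had 3084 and 3042 bases in the Kasumi-1 control and knockdown, and 3008 and 3127 in the MV4-11 control and knockdown. None of 4 T cell, 4 epithelial or 4 fibroblast markers had a peak in any library. Of 4 B cell markers, CD79A and EBF1 had a peak in each Kasumi-1 library and CD79A alone in each MV4-11 library. CD79A had 1519 and 1313 bases in the Kasumi-1 control and knockdown and 1127 and 1128 bases in those of MV4-11. Of the 4 erythroid markers, KLF1 had a peak in every library but the MV4-11 knockdown.

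Markers of the lines followed the labels only in part. Among 8 genes chosen for RUNX1::RUNX1T1 AML, CD34 alone had a peak in the libraries labelled Kasumi-1, with 180 bases in the control and 132 in the knockdown. KIT, POU4F1, RUNX1T1 and TRH of the same list were at 0 in every library. Each window sits at the gene's own start, so the RUNX1T1 value does not bear on a fusion transcript that starts elsewhere. Over 10 genes chosen for KMT2A-rearranged AML, the bases under peaks summed to 22566 and 21551 in the libraries labelled Kasumi-1 and to 7053 and 6160 in those labelled MV4-11 (control, then knockdown). Over all genes, 29.0% were at least 500 bases higher in the Kasumi-1 control than in the MV4-11 control, and 2.60% as far lower. Whether this general difference accounts for the sums was not tested. MEIS1 alone of the same list was lower in the Kasumi-1 control, with 3103 bases against 3337 in the MV4-11 control. HOXA7, for example, had 5001 bases in the Kasumi-1 control and 0 in the MV4-11 control. Any direction between the lines given here therefore rests on the labels. The part of cell identity in the HOXB values was not tested.

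The HOXB region had few or no bases under H3K27ac peaks in all 4 libraries. In the Kasumi-1 control the region held 1 peak of 372 bases. In the Kasumi-1 knockdown it held 1 peak of 387 bases. In the MV4-11 control and the MV4-11 knockdown it held 0 peaks. The share of the region under peaks was thus 0.297% in the Kasumi-1 control and 0.309% in the Kasumi-1 knockdown. Over chromosomes 1 to 22, X and Y the peaks covered 1.06% and 1.09% of the genome in these libraries, and 0.903% and 0.745% in the MV4-11 control and knockdown. The region therefore lay below the genome-wide share of bases in each library. That share is a mean that wide peaks raise (up to 26984 bases in the Kasumi-1 control). The number of peaks in the region did not stand out in the same way. The lists held 22768 and 23878 peaks in the Kasumi-1 control and knockdown, and 24523 and 22136 in those of MV4-11. These peaks were spread over 3088269832 bases, while the region has 125047 bases. At that mean density, 1 or 0 peaks in the region is not a low number. How many other regions of this size hold as few peaks was not counted.

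**Figure D1:**
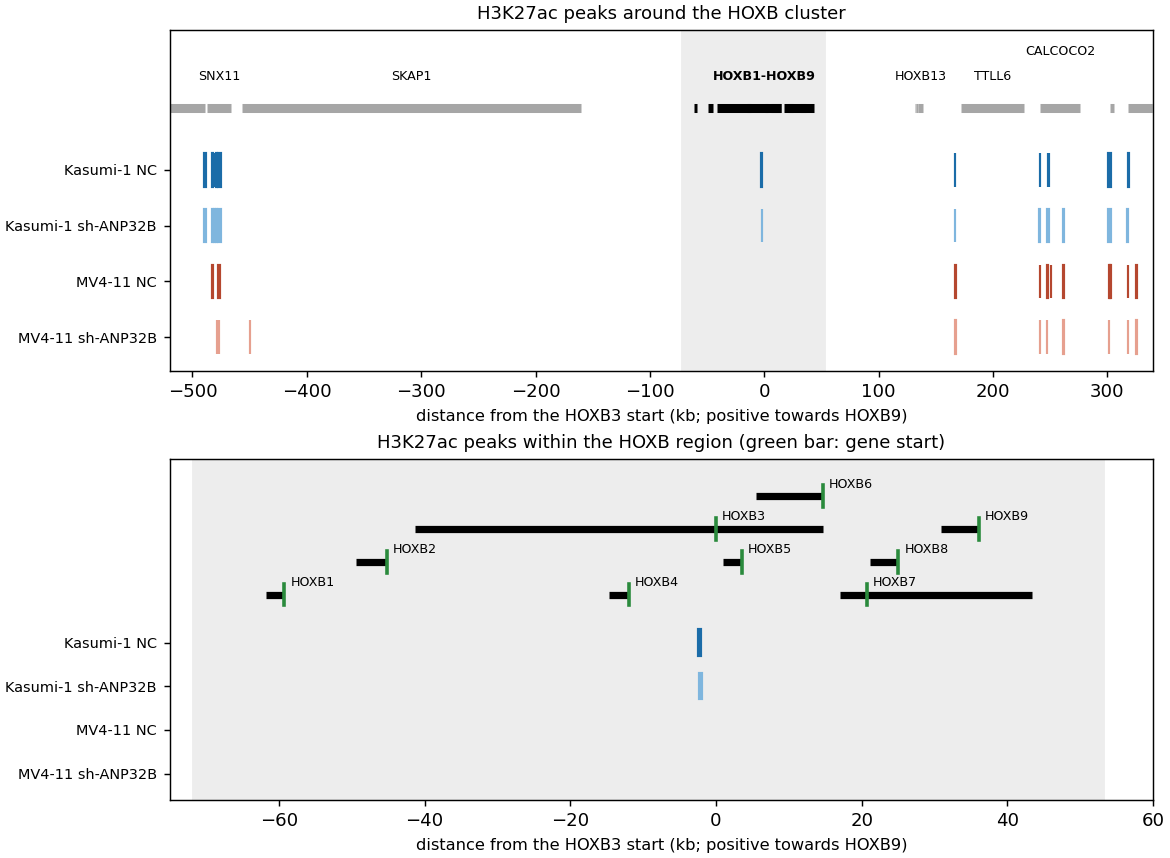
H3K27ac peaks by distance (kb) from the HOXB3 start, positive towards HOXB9, with 1 row of bars for each library. The upper panel shows the wider neighbourhood with protein-coding genes as bars (black for HOXB1 to HOXB9, gray for others) and the lower panel the region itself (gray shading), with gene starts in green. Peaks are drawn with a minimum line width. The single peaks of the Kasumi-1 libraries (372 and 387 bases) lie just inside HOXB3 and the MV4-11 rows are empty across the shaded region.

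The only H3K27ac peak of the cluster lay in HOXB3 (ENSG00000120093.12), a homeodomain gene with several alternative starts. The Kasumi-1 control peak ran over chr17:48587749-48588120 and the Kasumi-1 knockdown peak over chr17:48587906-48588292. Both lay in intron 1 of the canonical HOXB3 transcript, an intron of 16110 bases that runs between exons ending at 48590125 and starting at 48574014, and in intron 2 of the antisense RNA HOXB-AS3. The control peak lay 2121 to 2492 bases inside the gene from the HOXB3 start at 48590241, and the knockdown peak 1949 to 2335 bases. The control peak began only 8 bases inside the edge of the TSS window. Neither reached the start itself. HOXB3 has 12 annotated starts, and 3 of them had a peak within 2500 bases.

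The HOXB1 promoter is printed as the only member's promoter matched in the RefSeq table, and HOXB1 was the member farthest from a peak in every library. It reads 5′ to 3′ on the minus strand, the strand of the genes (chr17:48530962-48531261, RefSeq, GRCh38.p14), with 250 bases before the HOXB1 start and 50 bases from it on, and its capitals mark CpG pairs.
HOXB1 promoter: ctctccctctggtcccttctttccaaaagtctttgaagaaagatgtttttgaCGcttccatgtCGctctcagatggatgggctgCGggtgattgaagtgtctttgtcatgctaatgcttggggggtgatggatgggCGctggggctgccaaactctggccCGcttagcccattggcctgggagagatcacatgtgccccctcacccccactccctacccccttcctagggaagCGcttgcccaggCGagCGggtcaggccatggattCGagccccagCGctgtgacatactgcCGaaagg

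This promoter has a GC content of 58.0% and 11 CpG pairs in 300 bases. Expressed against the number that the C and G content alone would give (the CpG ratio), this is 0.436. No match was found on either strand to TGATTNAT (a PBX and HOX site, in 2.82% of the 35116 RefSeq promoters of this length), TGACAG (MEIS, 15.8%), TTTATNG (CDX, 9.73%), CCGCCC (SP1, 45.0%) or the direct repeat bound by the retinoic acid receptor (0.00570%). Only these exact strings were searched. Sites that differ from them by a base, such as the tgatggat in the printed sequence, were not counted, so binding sites of these factors may be present.

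Both Kasumi-1 peaks were among the narrow peaks of their lists. In the Kasumi-1 control the peak was 15 bases wider than the narrowest peak of the list, and 2.44% of the 22768 peaks were as narrow or narrower. In the Kasumi-1 knockdown the peak was 33 bases wider than the narrowest, and 5.40% of the 23878 peaks were as narrow or narrower. They overlapped by 215 bases, which is 57.8% of the control peak and 55.6% of the knockdown peak. After knockdown the peak was 15 bases wider, and its lower and upper edges lay 157 and 172 bases higher on the chromosome, towards the HOXB3 start.

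The TSS windows of the members were then read from the anterior to the posterior end of the cluster. HOXB1 (start at 48531011), which acts in the hindbrain, had 0 bases under peaks in all 4 libraries, and so had its neighbor HOXB2 (48545109). HOXB3 had 372 bases in the Kasumi-1 control, 387 in the Kasumi-1 knockdown and 0 in both MV4-11 libraries. HOXB4 (48578350), known for expanding blood stem cells when overexpressed, had 0 bases in every library. HOXB5 (48593779), a marker of long-term blood stem cells in mice, HOXB6 (48604986) and HOXB7 (48611017) were also at 0 throughout. HOXB8 (48615292), whose forced expression immortalizes myeloid progenitors, and HOXB9 (48626358) at the posterior end were at 0 in every library as well. The windows of HOXB3 and HOXB5 overlap, as do those of HOXB7 and HOXB8. Only HOXB3 set the libraries apart, with both Kasumi-1 libraries above both MV4-11 libraries.

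A peak in the TSS window was thus present in 1 of 9 members (11.1%) in each Kasumi-1 library and in 0 of 9 in each MV4-11 library. Over all 20007 protein-coding genes the share was 47.7% in the Kasumi-1 control, 45.3% in the Kasumi-1 knockdown, 35.8% in the MV4-11 control and 28.6% in the MV4-11 knockdown. The median over the members was 0 bases, and so was the median over all genes, since under 50% of genes had a peak. Among genes with a peak in the Kasumi-1 control the median was 1500 bases, against 372 at HOXB3, and 2.43% of these genes had at most 400 bases. A total of 8 members (88.9%) were at 0 in all 4 libraries, as were 10021 genes (50.1%). The median profile of the members over the 4 libraries was 0 in each, and 9996 genes outside the lists of HOX genes compared (HOXB13 among the 9996) had the same profile, so no gene could be singled out as most like them.

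Neighboring genes often share their chromatin state, and the members were therefore set beside runs of 9 consecutive protein-coding genes along the chromosomes. Of 19815 such runs, which overlap each other, 12.2% had at most 1 gene with a peak in the Kasumi-1 control and 13.3% in the Kasumi-1 knockdown. Runs with 0 genes with a peak made up 8.72% in the MV4-11 control and 12.6% in the MV4-11 knockdown. The median run held 4 genes with a peak in each Kasumi-1 library, 3 in the MV4-11 control and 2 in the MV4-11 knockdown. A run with this few marked genes was therefore below the median but occurred at many other places in each library.

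The distance from each start to the nearest peak was also read. In the Kasumi-1 control the HOXB3 start was nearest to a peak (2121 bases) and the HOXB1 start farthest (56738 bases), with a median of 22897 bases over the 9 members. In the Kasumi-1 knockdown the range was 1949 to 56895 bases, with a median of 22725. In each Kasumi-1 library the HOXB3 peak was the nearest for all members. In the MV4-11 control the range was 130542 bases at HOXB9 to 225889 at HOXB1, with a median of 163121, and in the MV4-11 knockdown it was 130879 to 226226, with a median of 163458. In each MV4-11 library the intergenic peak past HOXB13, described below, was the nearest for all members. The distances in MV4-11 were longer than those in Kasumi-1 for every member. This restates the presence of the HOXB3 peak in Kasumi-1 alone, and the 9 distances of a library are not separate observations.

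**Figure D2:**
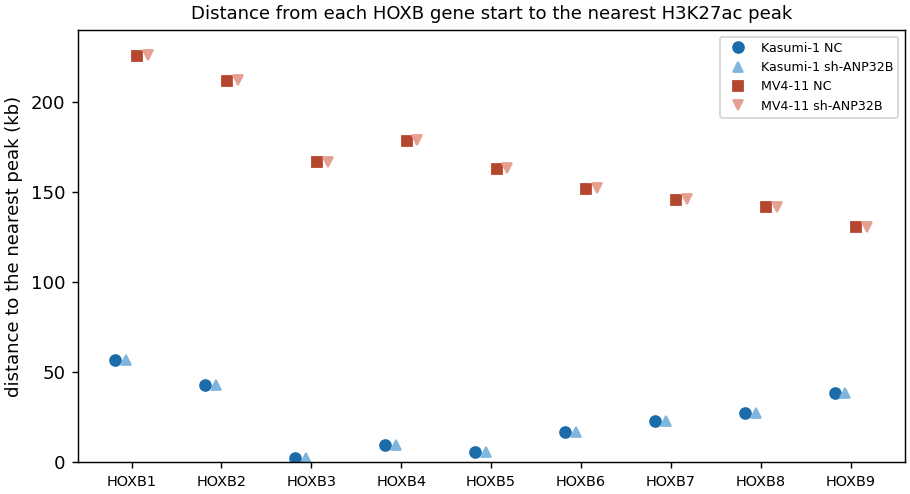
Distance in kb from the start of each HOXB gene to the nearest H3K27ac peak, with 1 symbol for each of the 4 libraries. The Kasumi-1 symbols are lowest at HOXB3 (2121 and 1949 bases), and the MV4-11 symbols lie between 130542 and 226226 bases and are lowest at HOXB9.

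The cluster sat inside a long stretch without peaks. In the MV4-11 control no peak was found from 48114268 to 48756899, a stretch of 642632 bases with 13 protein-coding starts. These were SKAP1, an adaptor protein of T cells, the 9 members, the prostate and colon genes PRAC1 and PRAC2, and HOXB13, the most posterior gene of the cluster. In the MV4-11 knockdown the stretch ran from 48140546 to 48757236 and held the same 13 starts in 616691 bases. Of the 24499 intervals between neighboring peaks in the MV4-11 control, 920 (3.76%) were at least as long, and 75 held at least as many protein-coding starts. Such shares count intervals and not bases, and the part of the genome in stretches as long was not computed. In the MV4-11 knockdown 4.45% of 22112 intervals were as long and 82 held as many starts. In the Kasumi-1 control the HOXB3 peak divided the stretch into an interval of 472488 bases with the starts of HOXB1, HOXB2, HOXB4 and SKAP1, and an interval of 168712 bases with those of the other members, PRAC1, PRAC2 and HOXB13. The corresponding intervals in the Kasumi-1 knockdown were 472796 and 168405 bases. In the Kasumi-1 control 5.20% of 22744 intervals were as long as the first and 13.4% as long as the second. As many starts were held by 716 and 120 intervals. In the Kasumi-1 knockdown the shares were 5.07% and 12.8% of 23854 intervals.

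At the HOXB9 side the stretch ended at the same intergenic site in every library, between HOXB13 and TTLL6, a tubulin-modifying enzyme. The peak there measured 414 bases in the Kasumi-1 control (chr17:48756833-48757246) and 561 bases in the Kasumi-1 knockdown (chr17:48756698-48757258). In the MV4-11 control it measured 1219 bases (chr17:48756900-48758118) and in the MV4-11 knockdown 882 bases (chr17:48757237-48758118). This site lay 28083 bases past the HOXB13 start in the Kasumi-1 control and 28150 bases in the MV4-11 control. The peaks of the control libraries shared 347 bases, which is 83.8% of the Kasumi-1 peak and 28.5% of the MV4-11 peak. The MV4-11 knockdown peak shared 10 bases with that of the Kasumi-1 control. At the HOXB1 side the stretch began past the start of SNX11 at 48107766, except in the MV4-11 knockdown, where a peak of 394 bases in intron 11 of SKAP1 bounded it.

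Of the genes next to the cluster, SKAP1, PRAC1, PRAC2, HOXB13 and TTLL6 had no peak in their TSS windows in any library. CALCOCO2, an autophagy receptor, had 608 and 754 bases in the Kasumi-1 control and knockdown and 428 and 464 in the MV4-11 control and knockdown. SNX11, a sorting nexin, had 1244 and 1670 bases in Kasumi-1 and 459 and 0 in MV4-11. The windows with peaks were those of the outermost gene on each side. Inside the region the annotation lists 8 noncoding genes, among them the microRNA genes MIR10A and MIR196A1 and the antisense RNAs HOXB-AS1 to HOXB-AS4. None of the 8 had a peak in its TSS window, and HOXB-AS3 alone had one in its body.

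The effect of ANP32B knockdown on the members was compared within each line. ANP32B itself (chromosome 9, start 97983341) had a promoter peak in all libraries, with 3447 and 3432 bases in the Kasumi-1 control and knockdown and 3433 and 2631 in the MV4-11 control and knockdown. Acetylation at its promoter does not measure the knockdown, which acts on the mRNA. In Kasumi-1, 0 of 9 members lost a peak, where 3.24% of all genes did, and 0 gained one, where 0.840% did. A fall of at least 500 bases was found in 6.07% of all genes. No member could show one, since the highest member held 372 bases in the control. A rise of at least 500 bases was found in 0 members and 2.63% of all genes. HOXB3 was the only member with a peak that could be lost, and its change was a rise of 15 bases.

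In MV4-11, where no member had a peak in the control, none could be lost, while 8.71% of all genes lost theirs. None of the members gained a peak, against 1.57% of all genes. For changes of at least 500 bases the share of all genes was 12.4% for a fall and 1.30% for a rise, and 0 members changed by that much. A fall was not possible with every member at 0 in the control. With no peak at any member before knockdown and background shares this low for gains, the count of 0 says nothing particular of the members.

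Between the lines, 1 of 9 members (HOXB3, 11.1%) had a peak in the Kasumi-1 control and none in the MV4-11 control, which is close to the 13.3% of all genes. The reverse was found in 0 members and 1.39% of all genes. Over all genes, the Kasumi-1 control exceeded the MV4-11 control by at least 500 bases in 29.0% and fell below it by as much in 2.60%. No member could meet either call, since none held 500 bases in either control. The difference between the lines, as labelled, was 372 bases at HOXB3, and line and library cannot be told apart. The depth of the libraries is unknown and may differ. Whether such a peak could have been called in MV4-11 was not tested.

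The other HOX clusters were compared by the same rule to place these values. In the HOXA region the peaks covered 37.8% of the bases in the Kasumi-1 control, 39.1% in the Kasumi-1 knockdown, 11.9% in the MV4-11 control and 10.2% in the MV4-11 knockdown. In the HOXC region they covered 13.2%, 14.4%, 7.44% and 3.50% in the same order. The HOXD region resembled HOXB, with 1 peak in each library and 0.776%, 1.05%, 0.423% and 0.921% of its bases covered. HOXB was thus the least covered of the 4 clusters in every library, and the only one without a peak in MV4-11. In TSS windows, 7 of 10 HOXA genes counted had a peak in each Kasumi-1 library and 5 in each MV4-11 library, against 1 and 0 of 9 in HOXB. HOXD had 1 of 9 in every library, as HOXB had in Kasumi-1, and HOXC had 3 of 9 in every library but the MV4-11 knockdown, which had 2.

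**Figure D3:**
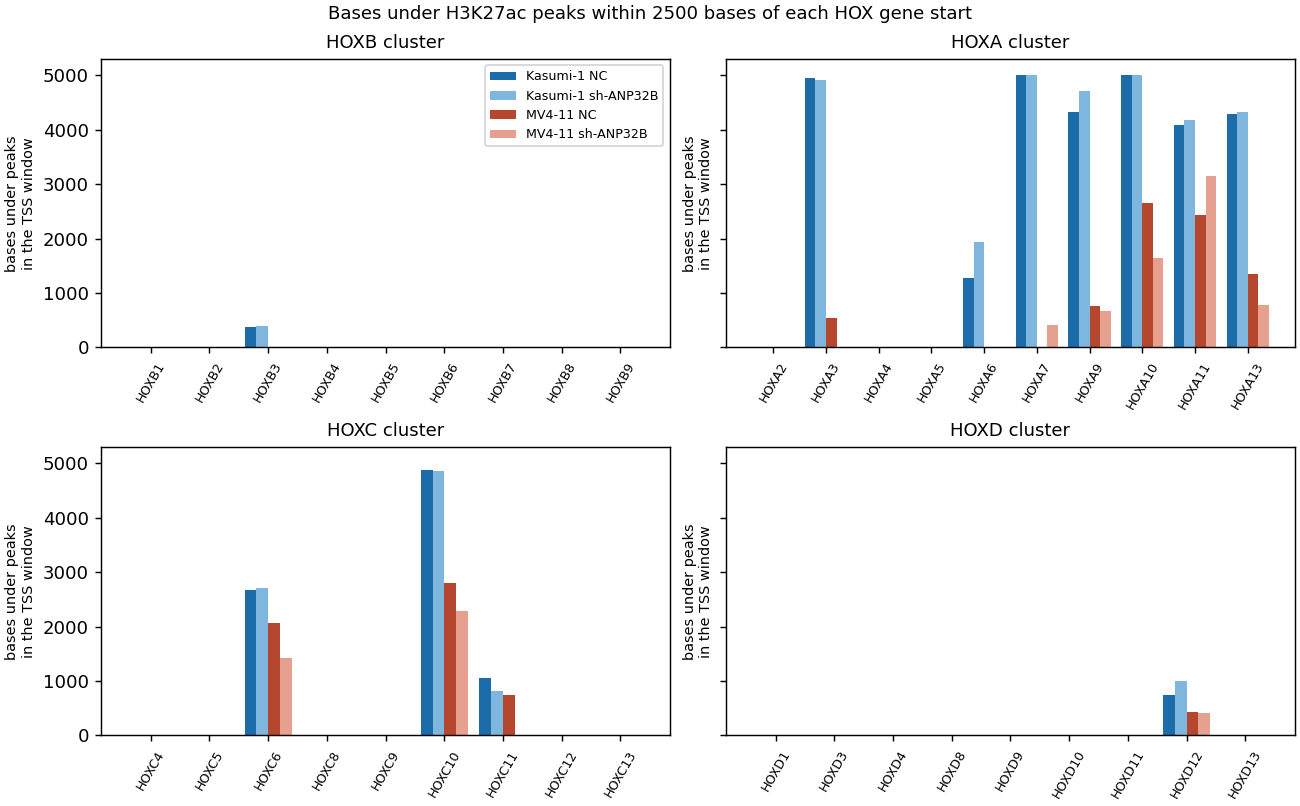
Bases under H3K27ac peaks in the TSS window (2500 bases in both directions) of 37 HOX genes, by cluster, with 1 bar for each of the 4 libraries. HOXB3 with 372 and 387 bases in Kasumi-1 is the single bar pair of the HOXB cluster, while HOXA7 and HOXA10 are covered over the whole window (5001 bases) in both Kasumi-1 libraries.

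Paralogs, genes of the same position and close sequence in different clusters, were set side by side. HOXA3 had 4953 bases in the Kasumi-1 control and 543 in the MV4-11 control, where HOXB3 had 372 and 0. HOXA7 had 5001 bases in the Kasumi-1 control, HOXA9 4335 and HOXA6 1281, where HOXB7, HOXB9 and HOXB6 had 0. In the MV4-11 control HOXA6 and HOXA7 were at 0, as were HOXB6 and HOXB7. In the MV4-11 control the window of HOXA9, a main target of KMT2A fusions, held 769 bases and that of HOXB9 none. For paralog groups 2, 4 and 5 neither the HOXA nor the HOXB gene had a peak in any library. Of these genes, no HOXB gene exceeded its HOXA paralog in any library. The paralogs HOXC4, HOXC5, HOXC8, HOXC9, HOXD1, HOXD3, HOXD4, HOXD8 and HOXD9 were at 0 in all 4 libraries, as were HOXB1, HOXB4, HOXB5, HOXB8 and HOXB9, while HOXB3 exceeded HOXD3 in Kasumi-1. HOXC6 had 2669 bases in the Kasumi-1 control and 2068 in the MV4-11 control, against 0 at HOXB6.

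A CpG-rich start is the usual home of a promoter peak, and the CpG ratio over 1001 bases around the start was therefore computed. The members ranged from 0.338 at HOXB3 to 0.889 at HOXB7, with a median of 0.772 against 0.725 over all genes. HOXB4 (0.772), HOXB5 (0.844), HOXB7, HOXB8 (0.866) and HOXB9 (0.803) were at or above 0.6, while HOXB1 (0.449), HOXB2 (0.585), HOXB3 and HOXB6 (0.376) were below. Of the 13264 genes with a ratio of at least 0.6, 63.4% had a peak in the Kasumi-1 control, 59.9% in the Kasumi-1 knockdown, 46.7% in the MV4-11 control and 36.9% in the MV4-11 knockdown. Of the 5 members in this class, 0 had a peak in any library. In the class below 0.6 the shares of all 6743 genes were 16.8%, 16.5%, 14.2% and 12.4%, and HOXB3 was the only one of 4 members with a peak. The CpG-rich members thus had no peak, and the peak counted for HOXB3 was in the window of the member with the lowest ratio. That peak lay 1949 to 2492 bases from the HOXB3 start, outside the 1001 bases measured. The CpG ratio at the peak itself was not computed.

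**Figure D4:**
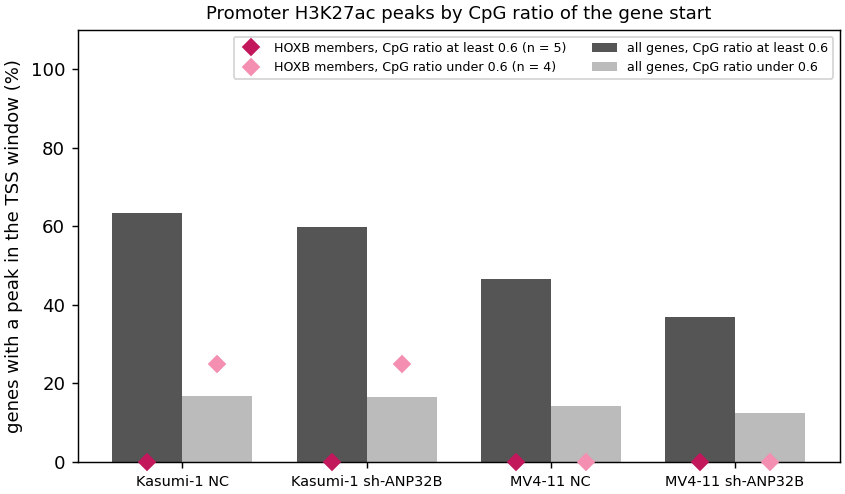
Share of genes (%) with an H3K27ac peak in the TSS window in each library, for all genes (bars) and HOXB members (diamonds), split by the CpG ratio of 1001 bases around the start. Dark bars (ratio of at least 0.6) stand at 63.4% in the Kasumi-1 control and 36.9% in the MV4-11 knockdown, while the 5 HOXB members of that class stand at 0 throughout.

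Cofactors and regulators of HOXB genes were read from the same windows. Of 9 cofactor genes, 4 had a peak in each Kasumi-1 library (PBX2, PBX3, MEIS1 and PKNOX1), 3 in the MV4-11 control (PBX2, MEIS1 and PKNOX1) and 2 in the MV4-11 knockdown (MEIS1 and PKNOX1). Among all protein-coding genes, 47.7% and 45.3% had a peak in the Kasumi-1 control and knockdown. The shares were 35.8% and 28.6% in the MV4-11 control and knockdown. The cofactor counts lie near these shares and show nothing particular to the cofactors. MEIS1, a cofactor that acts with HOXA9 in leukemia, had 3103 and 3264 bases in the Kasumi-1 control and knockdown and 3337 and 3123 in the MV4-11 control and knockdown. PBX3 had 2616 and 1570 bases in Kasumi-1 and 0 in both MV4-11 libraries. PBX2 had 3931 and 3952 bases in Kasumi-1 and went from 1439 to 0 in MV4-11, where 8.71% of all genes lost their peak. In the MV4-11 libraries, where no HOXB window was covered, MEIS1 and PKNOX1 were the cofactors with a peak in both.

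Of the 10 regulators, 6 had a peak in each Kasumi-1 library, 5 in the MV4-11 control and 4 in the MV4-11 knockdown. The shares of all genes with a peak are those given for the cofactors. The 6 genes differed between the Kasumi-1 libraries. RARA went from 390 bases in the control to 0 in the knockdown, and MEN1 from 0 to 538. KMT2A, the methyltransferase that keeps HOX genes active, had 3545 and 3584 bases in the Kasumi-1 control and knockdown and went from 576 to 0 in MV4-11. DOT1L, the methyltransferase recruited by KMT2A fusions, had 3682 and 3901 bases in Kasumi-1 and 1880 and 2013 in MV4-11. BMI1 and EZH2, subunits of the Polycomb complexes that silence HOX clusters, had peaks in all 4 libraries, from 1640 to 2721 bases at BMI1 and from 1740 to 3090 bases at EZH2. CDX1, CDX2 and CDX4, upstream activators of HOX genes, had none in any library. Counting any difference, 4 regulators were lower and 1 higher after knockdown in MV4-11, and 3 were lower and 4 higher in Kasumi-1. Some of these differences were small. In Kasumi-1, CTCF had 2256 bases in the control and 2244 in the knockdown, and KMT2A 3545 and 3584. The share of all genes that changed by any amount was not computed, so these counts have no background.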

How the data were processed

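H3K27ac CUT&Tag peak lists of 4 libraries, 1 per group, were used. According to the study, the authors aligned reads to hg38, removed PCR duplicates with Picard, merged replicates with samtools and called peaks with MACS2. The submitters' processing notes name Bowtie2 2.4.4 and MACS3 3.0, unlike the study's methods. The use of IgG as a peak calling control is not given in the sources used here. The deposited lists give the position and width in bases of each peak, counted from 1, and no other value. Groups were taken from sample titles. Bases under peaks were counted with Python 3.11.15 in the HOXB region and in TSS windows (2500 bases each way) of GENCODE v44 canonical transcripts (1 gene per symbol), by functions checked on simulated peaks. The smallest width differed between lists (357, 354, 289 and 275 bases), and alternatives were run for it, for the window, the flank, the transcript start and a stricter width. With 1 list per group and merged replicates no test was run. Named genes were the members, their neighbors, ANP32B, HOX cofactors, HOXB regulators and marker lists; the rule for the most similar genes ended in ties and named none. A few genes and a sequence are not reported here. The members and lists were chosen with earlier results of these data known.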

Additional observations from a re-analysis of the deposited data

How the results depend on the processing

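For the region, the TSS windows and the shared peaks, 13 values were recomputed in 57 combinations of value and setting, and 49 stayed the same or within 1.5 times. The other 8 rest on the narrow HOXB3 peak. With only peaks of at least 1000 bases, the bases under peaks in the region became 0 in both Kasumi-1 libraries, the members with a peak became 0 in both, and the difference of sh-ANP32B from NC and that of Kasumi-1 NC from MV4-11 NC became 0. With a window of 1000 bases to each side, the members with a peak became 0 in both Kasumi-1 libraries. By construction, these settings leave out a peak of 372 or 387 bases that lies over 1000 bases from the start. A single smallest width and joining distance (357 bases) for all lists, joining peaks at most 1000 bases apart, no flank or a flank of 50 kb, any annotated start, and an overlap of 50% of each peak changed none of these values. No paired analysis was possible because the labels give the groups no shared replicate numbers and the values come from no test; a comparison over the lines as pairs was not run. Without read totals, a weak signal below the calling threshold cannot be told apart from none.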
